A study of Mus musculus with 2 samples.

Results

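The subject here is a set of 31 genes for fatty acid oxidation and ketone body metabolism, read in the single-cell transcriptomes of inflamed mouse colon. The members are the rows of both count matrices whose gene symbol is on the list, 31 of 55357 genes listed. Both libraries belong to 1 group: 7-week-old mice kept free of specific pathogens, given 3% dextran sulfate sodium (DSS) over 6 days before the middle colon was taken. DSS is a polysaccharide that injures the colon lining, and no untreated colon was analysed here, so no value below describes an effect of DSS. Strain, sex and genotype are not given in the sources used here, and nothing states whether the repeats are different mice or one tissue loaded again. Each p-value thus reflects no more than how far differences between cell classes varied across these libraries, pooled over the classes. That spread is possibly a technical one.

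Mitochondria break fatty acids down in a fixed order. A fatty acid is bound and activated to its coenzyme A ester, long chains cross the inner membrane through the carnitine shuttle, and each turn of beta-oxidation releases acetyl-coenzyme A while electrons leave through the electron transfer flavoprotein. Acetyl-coenzyme A can then be joined into ketone bodies. Colonocytes, the absorptive cells of the colon surface, are known for using butyrate, a short-chain fatty acid made by gut bacteria, as a main fuel, and peroxisome proliferator-activated receptors (PPARs) are known regulators of these genes.

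The matrices held 76622643 and 94204110 unique molecular identifiers (UMIs, counted molecules) in libraries 1 and 2, and 5459 and 8461 cells passed the filters, with medians of 7924 and 6471 UMIs. The libraries shared 18 barcodes, 14 of them among kept cells. Cells were clustered with the members left out, although genes that vary with the members stayed in, and clusters were named by marker genes, so each class name means cells like that type. Surface colonocytes numbered 1132 and 619 cells, crypt progenitors, the stem-like and dividing cells, 197 and 232, and goblet cells 129 and 119. The surface colonocyte sums held 20 of 21 colonocyte markers at 10 CPM (UMIs per library and class, scaled to a common total) or more in both libraries, and the crypt progenitor sums held 19 and 18 of 21 progenitor markers. Lgr5, a stem cell marker, stood at 19.9 and 6.57 CPM in progenitors and at 0.180 and 0.130 CPM in surface colonocytes. In this paragraph only these Lgr5 values carry the normalisation (TMM) described below. The summed progenitor markers were 84.0 and 109 CPM in surface colonocytes against 4185 and 4736 CPM in progenitors. The progenitor sums also held 19 and 16 of 21 colonocyte markers at 10 CPM or more. The count of colonocyte markers therefore does not separate these classes, but their levels differed. Summed, colonocyte markers were 3329 and 2069 CPM in progenitors against 45299 and 45762 CPM in surface colonocytes. Neutrophil markers summed to 1327 and 1592 CPM in surface colonocytes and to 361 and 546 CPM in progenitors. Ly6g is on both the neutrophil and the colonocyte marker lists, so the colonocyte sum does not measure neutrophil RNA alone. The part of these markers in the differences below was not tested.

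Levels are CPM of counts summed per library and class, normalised with trimmed means of M-values (TMM), and a gene was called at an adjusted p under 0.05 in edgeR's quasi-likelihood test over 15438 genes. The scaling matters here. The TMM factors were 0.563 and 0.640 for surface colonocytes and 1.30 and 1.31 for crypt progenitors, so TMM raised colonocyte values and lowered progenitor values. The 20 most abundant genes took 24.7% and 21.4% of colonocyte counts and 11.7% and 10.1% of progenitor counts. Mitochondrially encoded genes took 7.85% and 5.62% of colonocyte counts and 4.59% and 3.66% of progenitor counts. An alternative chosen after seeing the data, scaling to summed totals alone, moved genes by a median of -1.12 on the log2 scale in that comparison. This is the median of the shifts of single genes, not the difference of 2 medians. Each group result is therefore given under both scalings. Of the members, 29 passed the filter on low counts, and Fabp1 and Ppara did not.

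Promoter sequence is shown for the genes at the ends of the colonocyte to progenitor comparison. Slc25a20 and Acsm3 had the largest differences in either direction, Fabp2 encodes a defining protein of absorptive cells, and Hadha and Hadhb, the subunits of the mitochondrial trifunctional protein, start head to head. The first 3 sequences lie before both the RefSeq and the GENCODE start of the gene, and the last is the stretch between the Hadha and Hadhb genes. All are from the plus strand of GRCm38.p6 as given by RefSeq, at chr3:122894822-122895071, chr9:108661886-108662087, chr7:119760673-119760922 and chr5:30155163-30155247. Capitals mark the CCAAT box, the GC box GGGCGG and the nuclear receptor core motif AGGTCA, on either strand.
Fabp2: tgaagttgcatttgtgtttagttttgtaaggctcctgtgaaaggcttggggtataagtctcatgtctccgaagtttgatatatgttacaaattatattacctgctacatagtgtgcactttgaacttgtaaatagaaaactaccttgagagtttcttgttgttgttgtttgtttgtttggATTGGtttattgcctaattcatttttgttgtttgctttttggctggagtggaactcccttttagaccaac
Slc25a20: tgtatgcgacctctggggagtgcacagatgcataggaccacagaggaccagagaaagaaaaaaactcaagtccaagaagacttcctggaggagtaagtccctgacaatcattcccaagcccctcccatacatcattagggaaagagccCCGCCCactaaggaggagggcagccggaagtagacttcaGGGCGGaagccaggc
Acsm3: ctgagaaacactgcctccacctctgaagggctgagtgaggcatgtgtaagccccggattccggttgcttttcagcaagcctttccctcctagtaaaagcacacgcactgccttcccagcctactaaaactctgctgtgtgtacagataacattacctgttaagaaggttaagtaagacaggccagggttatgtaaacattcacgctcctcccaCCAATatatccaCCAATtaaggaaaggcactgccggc
Hadha to Hadhb: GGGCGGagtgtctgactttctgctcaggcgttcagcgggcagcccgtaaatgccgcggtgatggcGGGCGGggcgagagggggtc

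The stretch between Hadha and Hadhb held 2 copies of the GC box GGGCGG in 85 bases, and the Slc25a20 stretch held 1 copy on each strand. The Acsm3 stretch held 2 CCAAT boxes and no GC box, and the Fabp2 stretch held 1 CCAAT box on the reverse strand. RefSeq windows of 250 bases before to 50 bases after the start were found for 27 of the 31 members, 30 windows in all. GGGCGG, searched on both strands like every motif here, was in 63.3% of member windows and in 35.7% of all 32851 windows. CCAAT was in 43.3% and 37.4%, and the nuclear receptor core motif AGGTCA in 26.7% and 16.3%. A direct repeat of AGGTCA with 1 base between the copies, the form bound by PPARs, was in 0 member windows and 0.0396% of all windows. The same repeat with any base at the fourth place of each copy was in 1 member window, that of Fabp1, and 0.381% of all windows. TNAAGGTCA, which also contains the core motif, was in 0 member windows and 1.28% of all windows. These are matches of letters in a short window and say nothing of binding.

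**Figure D1:**
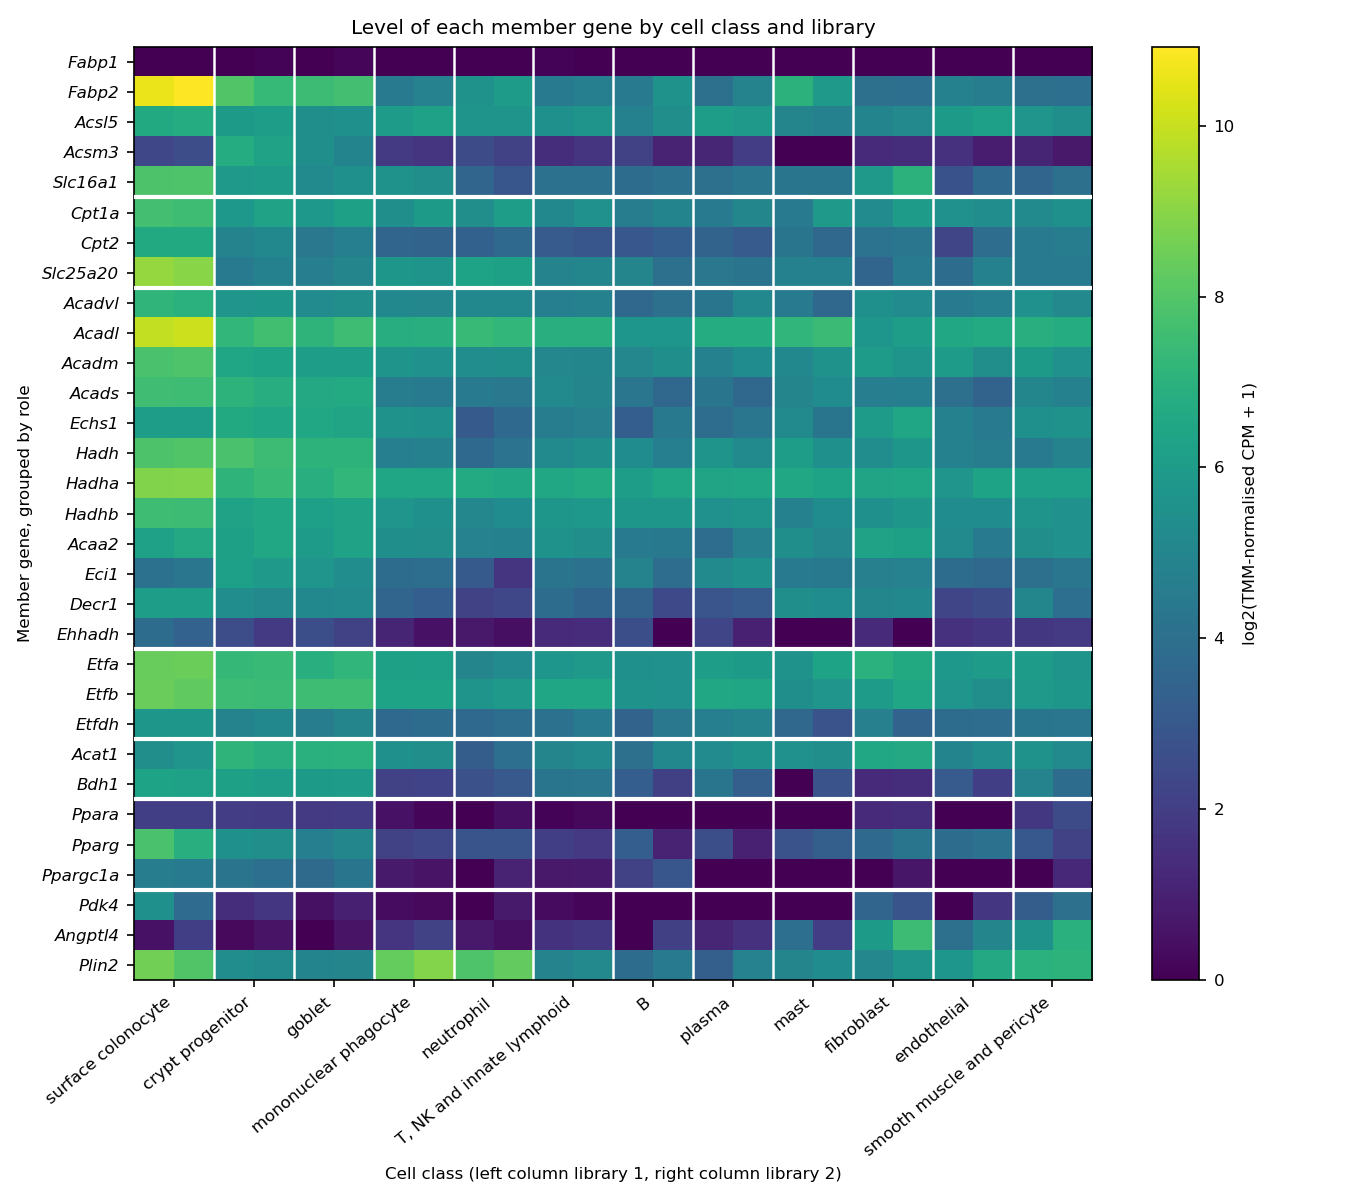
Heat map of all 31 members (rows, grouped by role) in 12 cell classes (column pairs, library 1 left and library 2 right), coloured by log2 of TMM-normalised CPM plus 1. The surface colonocyte columns were brightest for most members, Acsm3, Echs1, Eci1 and Acat1 were brighter in crypt progenitors, Angptl4 in fibroblasts, and Plin2 was also bright in phagocytes and neutrophils. With summed totals alone, surface colonocytes were highest for 12 of 29 members and crypt progenitors for 12. No share of all genes is set beside these counts.

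Across the 12 classes, surface colonocytes had the highest mean TMM-normalised level for 23 of the 29 filtered members, crypt progenitors for 4, fibroblasts for Angptl4 and mononuclear phagocytes for Plin2. Scaled to summed totals alone, surface colonocytes and crypt progenitors were each highest for 12. The top class was thus epithelial for most members either way, while the order within the epithelium moved with the scaling. The share of all genes with an epithelial top class is not given here. Whether the members exceed that share was not tested. Together the members made up 0.388% and 0.455% of colonocyte counts, 0.311% and 0.298% of progenitor counts and 0.0491% and 0.0588% of neutrophil counts.

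The first comparison set surface colonocytes against crypt progenitors, the ends of colonocyte maturation. With TMM, 21 of 29 members were higher in surface colonocytes (36.3% of all genes were higher) and 4 were lower (28.5% of all genes). The members' median log2 difference was 1.12, against 0.21 for all genes. With summed totals alone, 10 members were higher (16.2% of all genes) and 10 lower (50.9%), and the medians were -0.0051 and -0.78. Members above the median of all genes numbered 23 of 29 with TMM and 22 of 29 without it. The 10 higher under both scalings were Fabp2, Slc16a1, Cpt1a, Cpt2, Slc25a20, Acadl, Hadha, Pparg, Pdk4 and Plin2, and the 4 lower under both were Acsm3, Echs1, Eci1 and Acat1. Acsl5 and Acads were called in opposite directions by the scalings.

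Among the genes for uptake, binding and activation, Fabp2, the intestinal fatty acid binding protein, stood at 1531 and 1939 CPM in surface colonocytes and at 247 and 158 CPM in crypt progenitors. Both colonocyte sums lay far above both progenitor sums, a log2 difference of 3.08 ± 0.24 (SE; 8.48-fold; edgeR adjusted p = 2.27e-11). Slc16a1, a monocarboxylate transporter that carries butyrate, lactate and ketone bodies, stood at 230 and 241 CPM against 58.6 and 63.0 CPM. It was higher in colonocytes by 1.96 ± 0.19 (edgeR adjusted p = 1.55e-09). Acsm3, a medium-chain acyl-coenzyme A synthetase, went the other way, with 4.06 and 4.92 CPM in surface colonocytes and 106 and 76.9 CPM in progenitors. Its log2 difference was -4.35 ± 0.22 (edgeR adjusted p = 1.22e-14), with no overlap between the classes. Acsl5, a long-chain synthetase, differed by 0.71 with TMM and by -0.41 without it.

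Because progenitors held more UMIs per cell (medians of 30672 and 36317 against 13837 and 16012), shares of cells with a UMI were compared after thinning each cell to 2000 UMIs. This left out 6 and 19 colonocytes and no progenitor. Slc25a20 was then seen in 49.7% and 50.7% of colonocytes and in 2.54% and 6.03% of progenitors (93.7%, 94.3%, 48.7% and 62.1% unthinned). Fabp2 was seen in 55.6% and 68.7% against 36.0% and 30.6% (88.3%, 90.0%, 89.3% and 92.7% unthinned), so its difference was hidden in the unthinned shares. In mononuclear phagocytes, which should lack Fabp2, the thinned share was 4.67% and 5.39%, at a median depth of 9750 and 7972 UMIs. Acsm3 was seen in 0.444% and 1% of thinned colonocytes and in 25.4% and 17.7% of thinned progenitors (3.18%, 5.49%, 87.8% and 87.1% unthinned).

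All 3 genes of the carnitine shuttle were higher in surface colonocytes under both scalings. Slc25a20, the translocase that carries acylcarnitines across the inner membrane, stood at 577 and 500 CPM against 22.5 and 26.7 CPM. At 4.45 ± 0.20 (edgeR adjusted p = 1.204e-15) this was the largest difference of any member with TMM, a 21.9-fold higher level. Cpt2, which returns the acyl group to coenzyme A inside the mitochondrion, stood at 97.5 and 99.5 CPM against 28.2 and 33.0 CPM, a difference of 1.69 ± 0.17 (edgeR adjusted p = 2.55e-09). Cpt1a, the regulated entry step, differed by 1.55, at 199 and 183 CPM against 55.6 and 78.5 CPM.

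**Figure D2:**
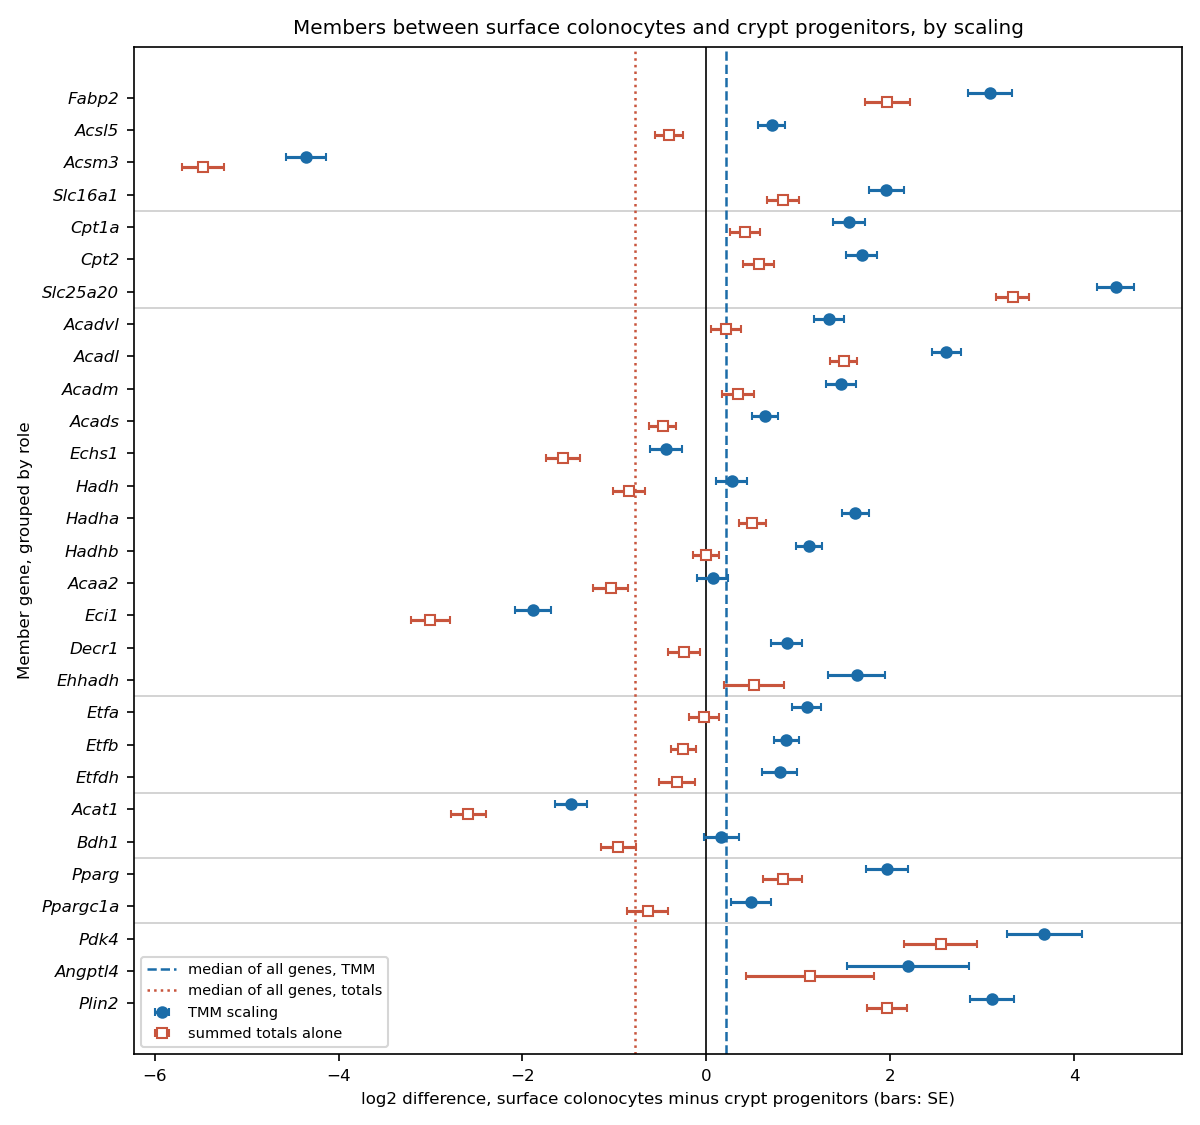
Log2 difference between surface colonocytes and crypt progenitors for the 29 tested members (rows, grouped by role; points are estimates and bars SE), with TMM (filled circles) and with summed totals alone (open squares), and the median of all genes under each as a vertical line. Slc25a20 lay farthest right and Acsm3 farthest left under both scalings, and 11 members crossed 0 between them.

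Of the beta-oxidation enzymes, Acadl, the long-chain acyl-coenzyme A dehydrogenase, stood at 981 and 1103 CPM in surface colonocytes and at 150 and 193 CPM in progenitors, a difference of 2.61 ± 0.16 (edgeR adjusted p = 1.56e-13). The dehydrogenases for the other chain lengths followed in smaller steps with TMM, at 1.33 for Acadvl (very long), 1.46 for Acadm (medium) and 0.64 for Acads (short). Without TMM these 3 differed by 0.21, 0.35 and -0.48, so only Acadl among the dehydrogenases was higher under both. Hadha, the larger subunit of the trifunctional protein, was higher under both (457 and 480 CPM against 138 and 169, log2 1.62), and its partner Hadhb was higher with TMM alone (182 and 176 CPM against 76.4 and 89.4, log2 1.12). Ehhadh, a peroxisomal enzyme, was low throughout, at 13.4 and 9.85 CPM against 4.97 and 2.66 CPM, a difference of 1.64 ± 0.31 (edgeR adjusted p = 4.85e-05), and was not called without TMM. Decr1, a reductase for unsaturated chains, differed by 0.88 with TMM and by -0.24 without it.

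Eci1, an isomerase for unsaturated chains, was lower in surface colonocytes, at 16.5 and 18.7 CPM against 71.4 and 58.5 CPM. The groups did not overlap, and the log2 difference was -1.88 ± 0.20 (edgeR adjusted p = 4.70e-09). Echs1, the short-chain enoyl-coenzyme A hydratase, was lower by a smaller step, at 66.0 and 68.8 CPM against 97.7 and 85.1 CPM, or -0.44 ± 0.17 (edgeR adjusted p = 0.0296). Hadh, the short-chain hydroxyacyl dehydrogenase, and Acaa2, a thiolase, were not called with TMM (0.28 and 0.07) and were lower without it (-0.84 and -1.04). The electron transfer genes Etfa, Etfb and Etfdh differed by 1.09, 0.87 and 0.80 with TMM and by -0.026, -0.25 and -0.32 without it, where none was called.

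Of the ketone body genes, Acat1, which joins acetyl-coenzyme A units into acetoacetyl-coenzyme A, was lower in surface colonocytes. It stood at 40.8 and 50.4 CPM against 136 and 116 CPM, a log2 difference of -1.47 ± 0.18 (edgeR adjusted p = 5.84e-08). Bdh1, which interconverts the ketone bodies acetoacetate and 3-hydroxybutyrate, was nearly level with TMM, at 80.5 and 75.2 CPM against 72.0 and 67.0 CPM, and was lower by 0.96 on the log2 scale without it.

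Among the regulators, Pparg, a PPAR that is abundant in colon epithelium, stood at 221 and 113 CPM in surface colonocytes and at 43.2 and 40.8 CPM in progenitors. The colonocyte libraries differed 1.95-fold from each other (95% counting interval 1.81 to 2.11), yet both lay above both progenitor sums (1.96 ± 0.23, edgeR adjusted p = 2.50e-08). Ppargc1a, a coactivator of mitochondrial genes, was not called with TMM, at 23.4 and 21.6 CPM against 17.3 and 15.1 CPM. Without TMM, Ppargc1a was called lower in colonocytes (-0.64). Ppara was too rare to test, with 277 UMIs in all kept cells, and stood at 3.06 and 3.11 CPM in surface colonocytes and 3.00 and 2.82 CPM in progenitors.

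Pdk4, a kinase that blocks pyruvate use and a known PPAR target, stood at 43.4 and 13.2 CPM in surface colonocytes and at 1.66 and 2.27 CPM in progenitors. The difference was 3.68 ± 0.40 (edgeR adjusted p = 3.11e-08), and library 1 exceeded library 2 in colonocytes by 3.28-fold (2.64 to 4.10). Plin2, a coat protein of lipid droplets, stood at 385 and 250 CPM against 39.8 and 35.1 CPM, or 3.10 ± 0.24 (edgeR adjusted p = 1.68e-11). Both storage and switch genes thus lay on the colonocyte side. Angptl4, a secreted inhibitor of lipoprotein lipase, rested on 5 and 24 UMIs in colonocytes and 2 and 6 in progenitors, its libraries overlapped between the classes (0.451 and 3.11 CPM against 0.207 and 0.469 CPM), and its call with TMM (2.19 ± 0.66, edgeR adjusted p = 0.00534) was lost without it.

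The libraries did not agree equally well for every member in surface colonocytes. Pdk4, Pparg and Plin2 were higher in library 1 by 3.28-fold, 1.95-fold and 1.54-fold, Fabp2 was lower at 0.79-fold, and Slc16a1 and Cpt2 differed by 0.95-fold and 0.98-fold. The makeup of the class also differed: a colonocyte subcluster led by Eno3 and Ubd held 285 cells in library 1 and 8 in library 2, and one led by Cpn1 and Alpi held 12 and 127. In the first, Pdk4 stood at 67.9 CPM and Plin2 at 380 CPM, and in the second Fabp2 stood at 2521 CPM and Pdk4 at 4.27 CPM (summed totals alone). The part of this makeup in the differences between libraries was not tested.

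Other genes of the pathway, 65 listed and 60 tested, were higher in surface colonocytes for 33 and lower for 13 with TMM, and for 22 and 24 without it. Mgll, which releases fatty acids from monoacylglycerol, stood at 151 and 103 CPM against 2.17 and 1.02 CPM (log2 6.33 ± 0.26, edgeR adjusted p = 2.37e-16). Dgat2, which makes triglyceride, stood at 389 and 365 CPM against 10.7 and 13.4 CPM (4.96 ± 0.21), and Acaa1b, a peroxisomal thiolase, at 13.3 and 11.1 CPM against 0 and 0.235 CPM. On the lower side, Acss2, which activates acetate, stood at 8.29 and 7.39 CPM against 69.9 and 49.5 CPM (-2.92 ± 0.21), Slc16a6, a monocarboxylate transporter, at 0.991 and 2.46 CPM against 8.59 and 11.9 CPM (-2.65 ± 0.36), and its relative Slc16a7 at 0.0901 and 0.130 CPM against 0.725 and 1.72 CPM. Of 20 genes of pyruvate dehydrogenase and the citric acid cycle, 7 were higher and 7 lower with TMM, and 1 and 13 without it. Cs and Ogdh were among the highest (log2 2.24 and 1.40), and Idh3a, Fh1 and Dlat were lowest (-1.75, -0.98 and -0.79).

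**Figure D3:**
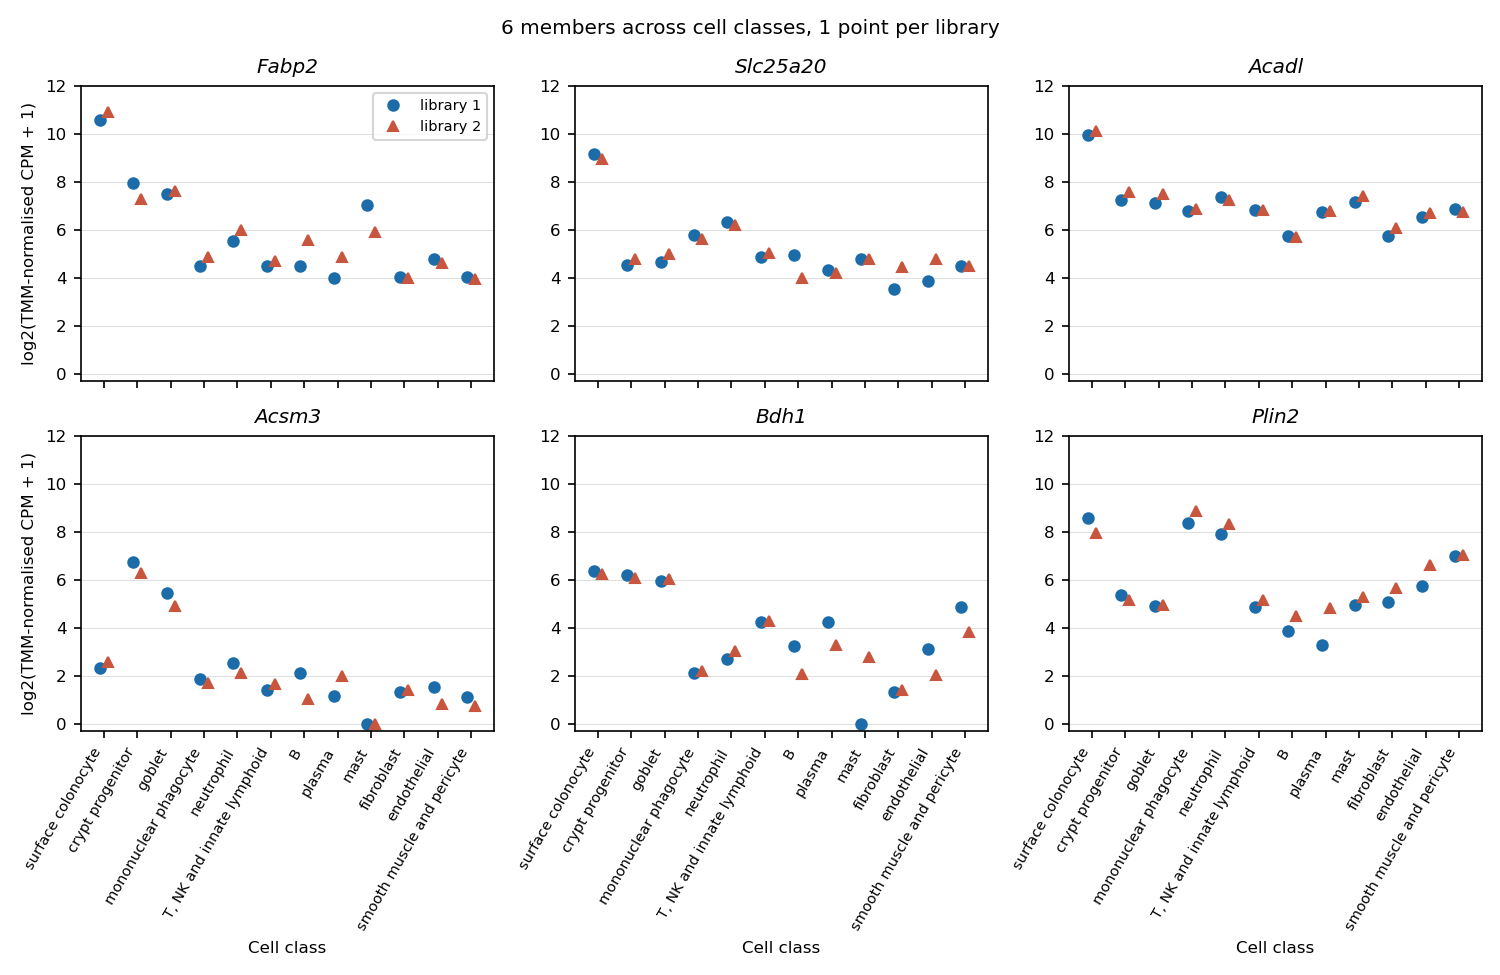
Log2 of TMM-normalised CPM plus 1 for 6 members (panels) in 12 cell classes, with 1 circle for library 1 and 1 triangle for library 2. Fabp2, Slc25a20 and Acadl peaked in surface colonocytes, Acsm3 in crypt progenitors, Bdh1 stood at like levels in the 3 epithelial classes with TMM, and Plin2 was high in surface colonocytes, phagocytes and neutrophils.

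Goblet cells, the mucus-making cells of the same epithelium, gave a second reference. With TMM, 23 of 29 members were higher in surface colonocytes (35.7% of all genes) and 3 lower (27.3%). Without it 12 were higher (15.9%) and 6 lower (49.2%), and the median shift over genes was -1.09. With no doublets removed 5 were lower (share of all genes not given). Members above the median of all genes numbered 25 and 23. Pdk4 differed most, at 43.4 and 13.2 CPM against 0.414 and 0.949 CPM (5.30 ± 0.53, edgeR adjusted p = 8.17e-09), but rested on 3 and 6 UMIs in goblet cells and on colonocyte libraries that differed 3.28-fold. It was followed by Slc25a20 at 24.7 and 30.7 CPM in goblet cells (4.29 ± 0.20, edgeR adjusted p = 2.96e-15). Plin2 stood at 29.2 and 30.4 CPM in goblet cells (3.44 ± 0.25, edgeR adjusted p = 5.62e-12) and Fabp2 at 180 and 199 CPM (3.19 ± 0.24, edgeR adjusted p = 1.56e-11).

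Further members higher than in goblet cells under both scalings were Acadl (2.71 ± 0.16), Slc16a1 (2.57 ± 0.20), Pparg (2.53 ± 0.24), Cpt2 (2.13 ± 0.18), Hadha (1.82 ± 0.15), Acadvl (1.76 ± 0.17), Acadm (1.73) and Cpt1a (1.60). The largest edgeR adjusted p among the first 6 of these was 8.29e-10. The 3 lower members were Acsm3 (42.5 and 29.3 CPM in goblet cells, -3.004 ± 0.22), Acat1 (121 and 126 CPM, -1.44 ± 0.18) and Eci1 (50.9 and 39.4 CPM, -1.36 ± 0.20; largest edgeR adjusted p of the 3, 1.56e-06). This comparison and that with progenitors share the colonocyte sums. Angptl4 rested on 29 UMIs in colonocytes and 3 in goblet cells, a ratio of 3.24 on summed totals (95% counting interval 1.005 to 16.6), and was called with TMM only. Of the other pathway genes, 34 were higher and 13 lower with TMM (23 and 23 without), led by Mgll, Dgat2 and Acaa1b on the higher side and by Slc16a7, Slc16a6 and Bdh2 on the lower. Of the 20 citric acid cycle and pyruvate dehydrogenase genes, 10 were higher and 3 lower with TMM (1 and 14 without), with Cs and Sdhc among the highest (2.49 and 1.203) and Idh3a, Fh1 and Pdhb lowest (-1.53, -0.71 and -0.38).

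**Figure D4:**
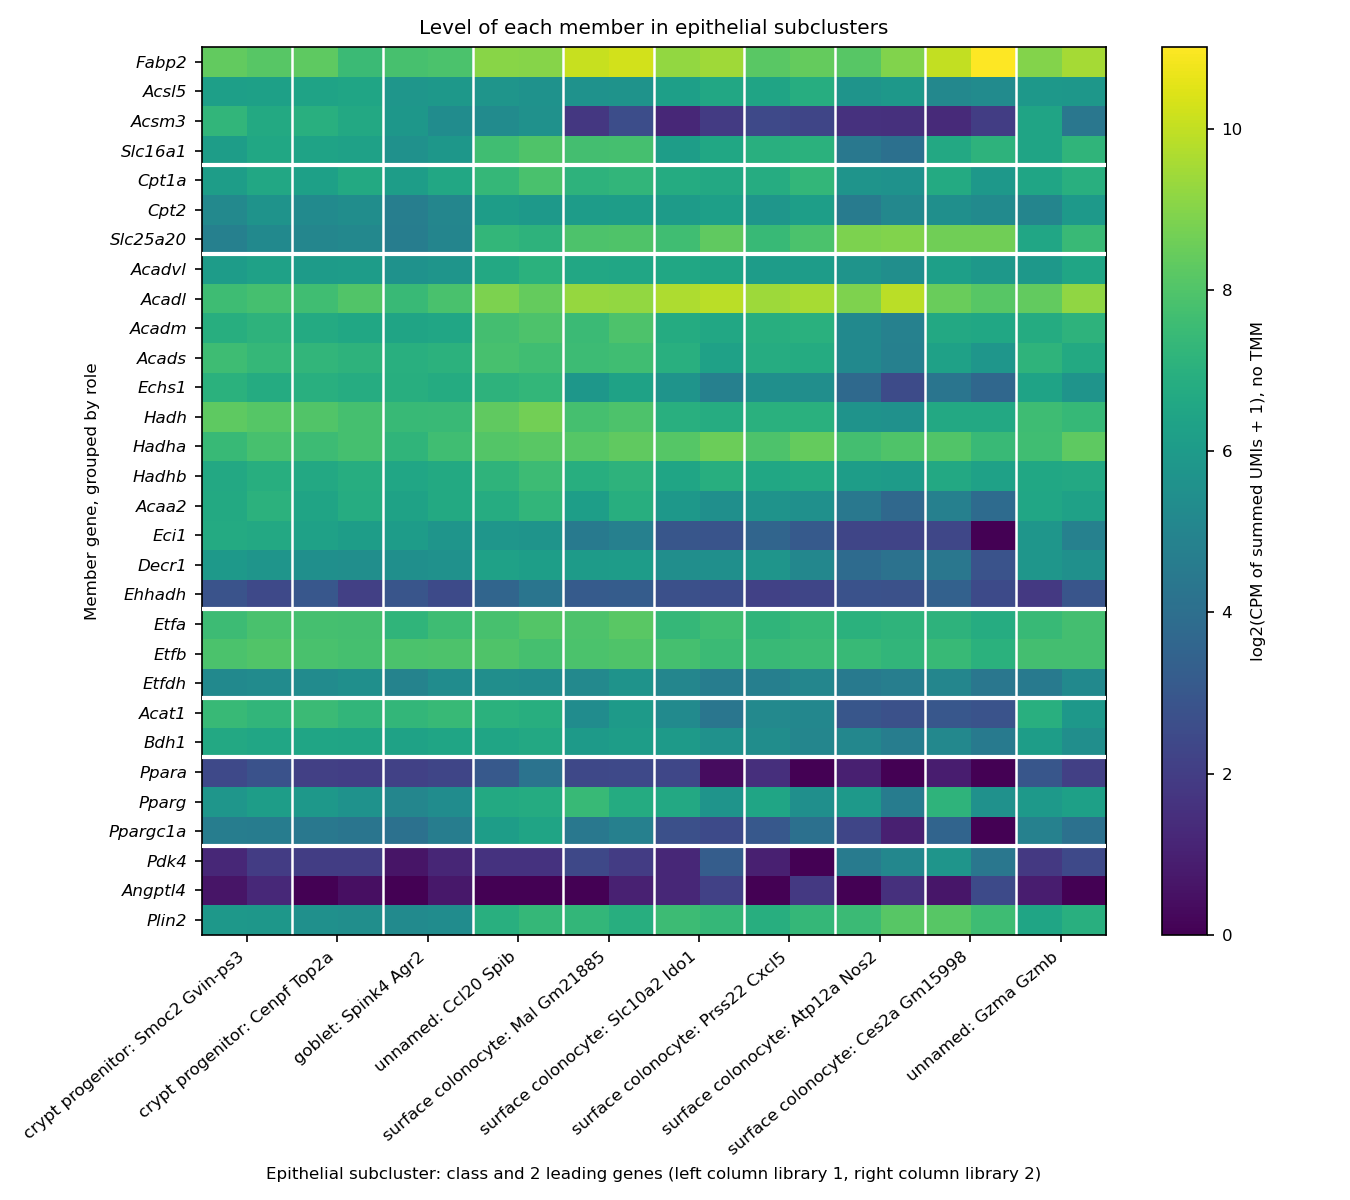
Log2 of CPM plus 1, scaled to summed totals without TMM, for 30 members (rows) in the 10 epithelial subclusters with at least 20 cells in each library (column pairs, library 1 left and library 2 right), labelled by class and 2 leading genes. Acsm3, Eci1 and Acat1 were lower in every colonocyte subcluster shown than in both progenitor subclusters, and Hadh, Acadm and Slc16a1 ranged widely among colonocyte subclusters.

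Surface colonocytes were not uniform. The subcluster led by Mal and Cyp2c65 (111 and 132 cells) and the one led by Atp12a and Nos2 (93 and 88 cells) are compared here on summed totals alone and without a test. Slc16a1 stood at 210 and 216 CPM in the first and at 20.4 and 15.9 CPM in the second. Hadh stood at 214 and 247 CPM against 49.5 and 46.7 CPM, and Acadm at 183 and 243 CPM against 36.9 and 28.0 CPM. The Atp12a subcluster was low for these members, but not for Slc25a20, at 458 and 483 CPM against 246 and 248.8 CPM, nor for Plin2, at 182 and 281 CPM against 154 and 118 CPM. Its cells were shallower (medians of 10280 and 9920 UMIs against 26594 and 24826) and their mitochondrial share higher (11.1% and 7.07% against 5.46% and 4.19%). The part of depth and RNA quality in these differences was not tested.

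Pdk4 was also uneven, at 53.0 and 19.4 CPM in the subcluster led by Ces2a and Aqp8 and at 0.985 and 0 CPM in the one led by Prss22, Cxcl5 and Ly6g. The Slc10a2 and Ido1 subcluster had the most Acadl in library 1 among colonocyte subclusters with 20 cells in each library, at 802 CPM, and 939 CPM in library 2, next to 953 CPM in the Atp12a subcluster. The progenitor subclusters, one led by Smoc2 and Lgr5 and one by the cell division genes Cenpf and Top2a, are given side by side without a test. Acsm3 stood at 152 and 104 CPM in the first and 123 and 99.0 CPM in the second, and Eci1 at 107 and 99.8 CPM and 78.0 and 69.7 CPM.

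The third question was how epithelium compared with the 6 immune classes, taken as their mean. With TMM, 27 of 29 members were higher in surface colonocytes (36.2% of all genes) and 0 lower (28.8%), and without it 25 were higher (27.0%) and 1, Eci1, lower (39.5%). The members' median log2 difference was 2.57 with TMM and 1.98 without it, against 0.05 and -0.50 for all genes, and 28 of 29 lay above the median of all genes either way. Without TMM the median shift over genes was -0.59. Eci1 and Angptl4 were not called with TMM.

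The largest differences from immune classes were those of Pdk4, Ppargc1a, Fabp2 and Pparg. Pdk4 averaged 0.0913 and 0.179 CPM over the immune classes (8.24 ± 0.58, edgeR adjusted p = 8.82e-12) and Ppargc1a 0.8003 and 1.47 CPM (6.17 ± 0.36, edgeR adjusted p = 3.29e-13). Fabp2 averaged 42.7 and 41.9 CPM (5.55 ± 0.15, edgeR adjusted p = 1.46e-21) and Pparg 5.39 and 3.94 CPM (5.27 ± 0.20, edgeR adjusted p = 1.52e-18). In each of these, both colonocyte sums lay above both immune means. Pdk4 had 0 UMIs in B, plasma and mast cells, and Ppargc1a had 0 in plasma and mast cells. The sizes and ranks of Pdk4 and Ppargc1a thus depend on classes without UMIs, as the model averages log levels. The Fabp2 mean in library 1 drew most on mast cells, at 130 CPM. The next members in size were Ehhadh at 4.17 ± 0.42, Slc25a20 at 4.04 ± 0.13, Slc16a1 at 3.78 ± 0.15, Bdh1 at 3.53 ± 0.18, Cpt2 at 3.34 ± 0.14, Acadl at 3.24 ± 0.10, Acads at 3.09 ± 0.11 and Hadh at 2.90 ± 0.12. The largest edgeR adjusted p of these 8 was that of Ehhadh, 2.10e-09. Plin2 differed by 2.46 on average, although phagocytes reached the colonocyte level.

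Crypt progenitors were likewise above the immune mean, for 26 of 29 members with TMM (35.2% of all genes) and 26 without it (50.6%). Those lower numbered 3 (23.8%) and 1 (15%), and the median shift over genes without TMM was 0.52. With a 10% mitochondrial limit 1 was lower (share of all genes not given). Acsm3 differed most, at 106 and 76.9 CPM against 2.30 and 1.96 CPM (6.31 ± 0.21, edgeR adjusted p = 4.44e-18), then Ppargc1a (5.69 ± 0.39, edgeR adjusted p = 1.22e-11) and Pdk4 (4.56 ± 1.15, edgeR adjusted p = 0.00157). The sizes for Ppargc1a and Pdk4 again depend on immune classes without UMIs, and Acsm3 and Ehhadh had 0 UMIs in mast cells. Bdh1 (3.37 ± 0.18), Pparg (3.30 ± 0.22), Hadh (2.62 ± 0.12), Ehhadh (2.54 ± 0.58), Fabp2 (2.47 ± 0.17), Acads (2.45 ± 0.12), Echs1 (2.13 ± 0.14) and Acat1 (2.05 ± 0.13) followed, with a largest edgeR adjusted p of 0.000513 for Ehhadh. The lower members were Angptl4 (0.207 and 0.469 CPM against 3.55 and 2.40 CPM, -2.51 ± 0.68, edgeR adjusted p = 0.0025), Plin2 (-0.64 ± 0.21, edgeR adjusted p = 0.00941) and Slc25a20 (-0.41 ± 0.17, edgeR adjusted p = 0.0384). Angptl4 alone was lower under both scalings, but it rested on 8 UMIs in progenitors. Mast cells, with 6 Angptl4 UMIs in all, stood at 15.1 and 2.95 CPM and raised the immune mean most in library 1.

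Other pathway genes were higher than the immune mean for 41 and lower for 10 of 60 in surface colonocytes with TMM (37 and 12 without it), and for 32 and 11 in progenitors (38 and 8). Slc16a6 was lower in both, at 0.991 and 2.46 CPM in colonocytes and 8.59 and 11.9 CPM in progenitors against an immune mean of 67.9 and 69.7 CPM (log2 -5.29 and -2.63). Fabp5, a fatty acid binding protein of many cell types, was lower in colonocytes (6.58 and 9.20 CPM against 178 and 123 CPM, -2.97), as was Slc16a7, while Acaa1b, Acacb and Fabp6 led the higher side. In progenitors Lipe and Acsl4 were also lower (-2.43 and -2.02) and Fabp6, Slc27a2 and Acacb led the higher side. Of the 20 genes of pyruvate dehydrogenase and the citric acid cycle, 19 were higher and 0 lower in each with TMM (16 and 0 in colonocytes and 20 and 0 in progenitors without it), led by Suclg2 and Cs in colonocytes (3.43 and 3.23) and by Suclg2, Idh3a and Suclg1 in progenitors (2.60, 2.12 and 2.10).

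RNA freed from damaged epithelium can be counted in other cells, so each member's level outside the epithelium was set beside 12 fixed epithelial genes such as Epcam and Krt20. In phagocytes those genes stood at 2.43% to 4.15% of their epithelial level in library 1 and at 2.24% to 4.54% in library 2, with summed totals alone. Fabp2, Ppargc1a and Pdk4 lay at or below that range in phagocytes of both libraries, as did Pparg in library 1, and are read as background there. In T, NK and innate lymphoid cells Fabp2, Pparg, Ppargc1a and Pdk4 did so in both libraries, and Acsm3 in library 1. In neutrophils Fabp2, Hadh, Decr1, Bdh1, Pparg and Ppargc1a did so in both, Pdk4 in library 1, and Acsm3, Slc16a1, Eci1 and Ehhadh in library 2, or 7 and 10 of 29 members. The median member stood at 31.0% and 29.0% of its epithelial level in phagocytes, 32.3% and 32.9% in T, NK and innate lymphoid cells and 8.65% and 8.74% in neutrophils. The 20 most abundant genes took 47.8% and 44.8% of neutrophil counts and 19.8% and 17.5% of phagocyte counts. The part of this in the low neutrophil percents was not tested. Members not named here for a class lay above the highest of the fixed epithelial genes in that class.

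**Figure D5:**
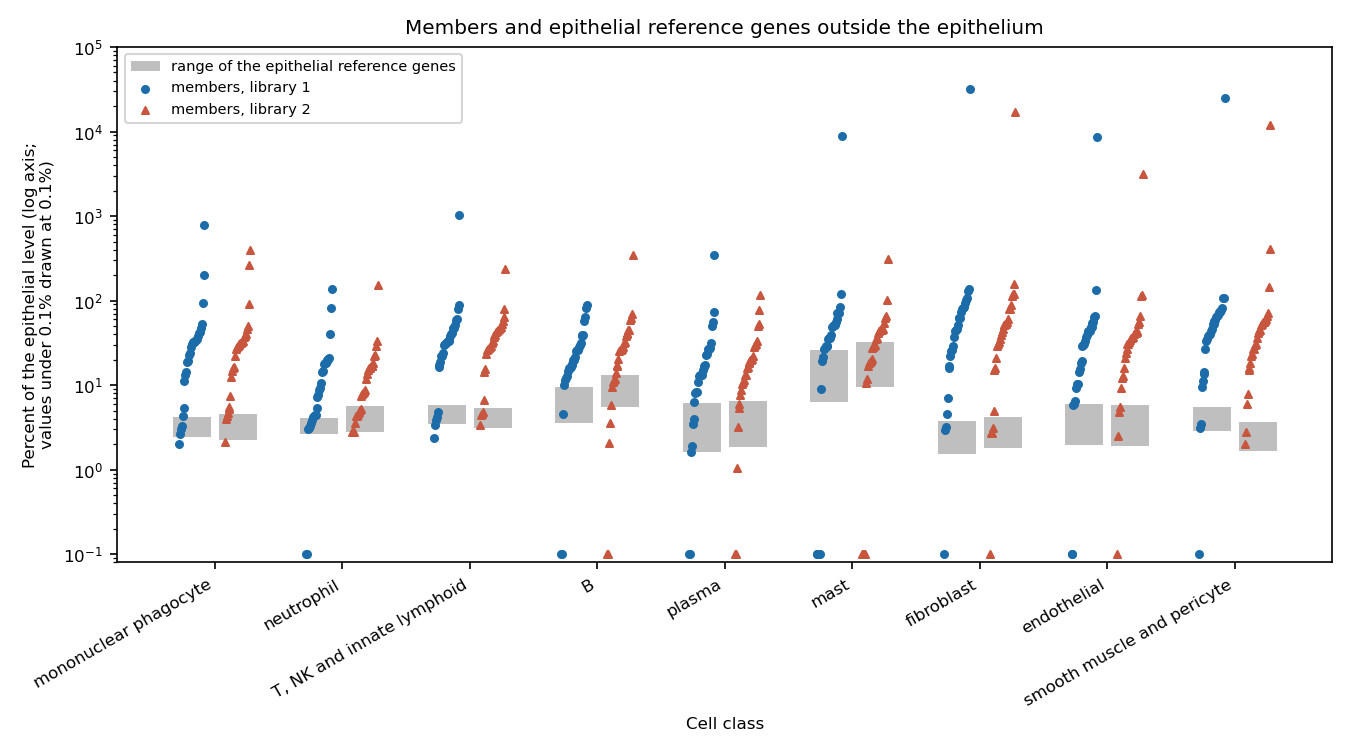
Level of each of the 29 tested members in 9 classes outside the epithelium, as a percent of its level in all epithelial cells of the same library (log axis, 1 point per member, circles for library 1 and triangles for library 2; values under 0.1% are drawn at 0.1%). Grey boxes span the 12 epithelial reference genes, and Angptl4, near 0 in the epithelium, gives the highest points in the stromal classes. In phagocytes of library 2 the box ran from 2.24% to 4.54% and most members lay above it, while more neutrophil points fell within theirs.

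Plin2 set the myeloid cells apart. It stood at 327 and 471 CPM in mononuclear phagocytes, 243 and 316 CPM in neutrophils, 385 and 250 CPM in surface colonocytes and 28.5 and 34.7 CPM in T, NK and innate lymphoid cells. The libraries of phagocytes and colonocytes overlapped, and both myeloid classes lay above all lymphoid sums. T, NK and innate lymphoid cells were lower than phagocytes by 3.65 on the log2 scale (SE 0.24, edgeR adjusted p = 1.57e-12), and neutrophils differed from phagocytes by -0.51 ± 0.22, which was not called with TMM (edgeR adjusted p = 0.0618) and was called without it (-1.35). After thinning to 2000 UMIs, Plin2 was seen in 36.6% and 49.1% of phagocytes, 21.8% and 24.1% of neutrophils and 6.03% and 8.26% of T, NK and innate lymphoid cells (72.0%, 79.4%, 44.2%, 48.9%, 14.6% and 17.5% unthinned).

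Within the myeloid cells, neutrophils were set against mononuclear phagocytes. With TMM, 3 of 29 members were higher in neutrophils (21.7% of all genes) and 11 lower (28.2%). Without it 0 were higher (8.58%) and 21 lower (50.6%), and the median shift over genes was -0.83. With TMM and no doublets removed the counts were 10 higher and 4 lower, with Acads called higher (0.59) and Hadh at 0.23 and not called. DESeq2 gave 5 higher. The shares of all genes called under these settings are not given here, and whether all genes moved likewise was not tested. In the main fit with TMM the members' median was -0.17, as was that of all genes, and 15 of 29 members lay above the latter. The 11 members lower with TMM were also lower without it, in cells with doublets removed. Slc16a1 stood at 10.9 and 6.60 CPM against 47.0 and 41.0 CPM (-2.43 ± 0.29, edgeR adjusted p = 1.24e-07), Echs1 at 7.52 and 12.5 CPM against 46.1 and 44.1 CPM (-2.09 ± 0.25, edgeR adjusted p = 1.33e-07) and Acat1 at 8.20 and 15.03 CPM against 43.8 and 40.7 CPM (-1.78 ± 0.25, edgeR adjusted p = 1.12e-06). Neutrophils were low in these in both libraries, and Slc16a1 in library 2 lay at a level read as background.

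Further lower members were Eci1 (-1.74 ± 0.35), Decr1 (-1.29 ± 0.34), Etfa (-1.07 ± 0.19), Hadh (-0.78 ± 0.24), Acaa2 (-0.63 ± 0.21), Etfb (-0.56 ± 0.16) and Acsl5 (-0.51), with a largest edgeR adjusted p of 0.0142 for Acaa2. The neutrophil levels of Hadh and Decr1 in both libraries, and of Eci1 in library 2, were at a level read as background, so the size of these differences is not a measure of expression in neutrophils. Angptl4 rested on 80 UMIs in phagocytes and 2 in neutrophils, a ratio of 11.8 on summed totals (95% counting interval 3.16 to 99.0). Fabp2 (1.13 ± 0.26, edgeR adjusted p = 0.000813), Slc25a20 (0.57 ± 0.19, edgeR adjusted p = 0.0174) and Acadl (0.48 ± 0.16, edgeR adjusted p = 0.0119) were higher with TMM, but Fabp2 lay at the level of the epithelial reference genes in both classes. Without TMM, Acadl was lower (-0.36) and the other two were not called. Of 60 other pathway genes, 20 were higher and 13 lower with TMM (9 and 29 without). Dgat1, which makes triglyceride, stood at 963 and 779 CPM in neutrophils and 44.2 and 34.8 CPM in phagocytes (4.47 ± 0.19, edgeR adjusted p = 1.30e-15), ahead of Mgll (3.68) and Slc27a4 (3.14). Nr1h3, a sterol receptor, was lower (2.05 and 2.93 CPM against 39.5 and 58.2 CPM, -4.23), and Slc16a7 and the fatty acid transporter Cd36 were also lower, Cd36 with 0 counts in neutrophils against 9.52 and 6.01 CPM. The citric acid cycle and pyruvate dehydrogenase list had 2 higher (Mdh2 and Pdha1) and 7 lower genes with TMM, Fh1, Idh3b and Idh3a lowest (-2.37, -1.17 and -1.04), and 0 and 18 without it.

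T, NK and innate lymphoid cells differed from phagocytes in 12 members with TMM, 5 higher (25.3% of all genes) and 7 lower (26.3%). Without it they differed in 14, 12 higher (41.9%) and 2 lower (18.4%), and the median shift over genes was 0.44. The 5 higher fell to 2 with no filter on low counts and to 3 with at least 500 genes per cell (shares of all genes not given). Bdh1 differed most on the higher side, at 17.8 and 18.5 CPM against 3.37 and 3.65 CPM (2.34 ± 0.24, edgeR adjusted p = 6.17e-09), and lay at 31.8% and 31.5% of its epithelial level. Hadh (0.61 ± 0.18), Etfdh (0.56 ± 0.20), Acads (0.53 ± 0.15) and Ehhadh (1.16 ± 0.48), the last from 17 and 26 UMIs against 8 and 8, were also higher under both scalings, with a largest edgeR adjusted p of 0.0491 for Ehhadh. Slc16a1 was lower under both, at 16.1 and 15.9 CPM against 47.0 and 41.0 CPM (-1.46 ± 0.20, edgeR adjusted p = 9.39e-07), as was Plin2. Echs1 (-0.84 ± 0.18), Slc25a20 (-0.77 ± 0.18), Acsl5 (-0.58 ± 0.15), Acadm (-0.57 ± 0.17) and Cpt2 (-0.51 ± 0.20) were lower with TMM only (largest edgeR adjusted p, 0.0377). Other pathway genes were lower for 33 of 60 and higher for 4 with TMM, with Nr1h3, Abcd2 and Slc16a7 lowest (-5.86, -5.47 and -5.03) and Crot, Acss2 and Dgat1 highest (2.21, 1.89 and 1.06). Without TMM these counts were 25 and 13. In the citric acid cycle and pyruvate dehydrogenase list, Idh3a and Suclg2 were higher (1.02 and 0.63) and 7 genes lower with TMM, Dlst, Dld and Sdhd lowest (-0.82, -0.77 and -0.73), and 6 and 0 without it.

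Angptl4 was highest in stromal classes. It stood at 60.5 and 178 CPM in fibroblasts, 47.6 and 120 CPM in smooth muscle cells and pericytes and 15.5 and 30.1 CPM in endothelial cells. Library 2 was higher in all 3, and the first 2 classes overlapped. The fibroblast sums came from 42 and 107 cells, with 39 and 318 Angptl4 UMIs. Slc16a1 was also high in fibroblasts, at 57.4 and 127 CPM, and Pdk4 stood at 10.9 and 6.15 CPM in fibroblasts and 8.33 and 15.4 CPM in smooth muscle cells and pericytes, above every immune class.

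Fabp1, the liver-type fatty acid binding protein, was counted 62 times in all kept cells, and 0 of those UMIs were in the 1751 surface colonocytes. Tuft cells, rare chemosensory cells named from 9 and 3 cells, held 56 of them, in 5 of 12 cells, and 45 came from 1 cell of library 2. The other classes held 6. Tuft cells were too few to enter any comparison.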

How the data were processed

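The deposited files hold UMI counts per gene and barcode, made by the authors with Cell Ranger (7.0.0 per the file headers, 8.0.0 and mm10 per the submitters' processing notes). The labels name both a 3' V3 kit and 3' v2 reagents. Barcodes with at least 200 genes and under 20% mitochondrial counts were kept, and the highest Scrublet scores were removed at 0.8% per 1000 barcodes (262 and 666 barcodes). Cells were clustered in scanpy 1.11.5 (2000 variable genes, 30 components, 15 neighbours, Leiden resolution 1.0) without the members, other list genes and mitochondrial, ribosomal, haemoglobin, immunoglobulin and sex-linked genes. Clusters were named by marker lists. A naming rule was changed after clusters were seen: colonocyte markers count as epithelial markers, and a score under 0.5 leaves a subcluster unnamed, which kept 174 and 32 Aqp4-high cells and 19 and 140 Areg-high cells out of the colonocytes.

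Counts were summed per library and class for the 12 classes that reached 20 cells in both libraries (24 sums). edgeR 4.0.16 in R 4.3.3 fitted 15438 genes with TMM, filterByExpr and the library as a block, leaving 11 residual degrees of freedom, and p-values were adjusted by Benjamini-Hochberg over all of them. Model differences average log levels over the immune classes, while immune levels in the text are plain means. Tested on simulated data for surface colonocytes against crypt progenitors (15003 genes), the fit recovered 95.5% of changes of 1 and 100% of changes of 2 or 3 on the log2 scale and called 0.0473% of unchanged genes. In the simulation all other genes had equal levels in both classes, with the spread taken from the trend over genes in the fit. These rates thus leave out the uncertainty from scaling. The changed genes were drawn only from those above 20 CPM in crypt progenitors. The recovery rates therefore do not apply to lower members such as Pdk4, Ehhadh, Ppargc1a and Angptl4. Counting intervals (95%) cover counting error only. Coordinates are GRCm38 (GENCODE M21). Alternatives were DESeq2 1.42.0, no filter, no library block, other clustering, cell filters and scalings. Members, lists and tests were chosen with earlier results of these data known. The rule named all members, with full statistics for the 12 largest called differences per comparison and for calls against the majority, and the 3 highest and 3 lowest called genes of each other list. Some of these other list genes are not reported here.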

Additional observations from a re-analysis of the deposited data

How the results depend on the processing

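Each of 174 member results (29 members in 6 comparisons) was recomputed under each setting. With summed totals alone in place of TMM, 29 changed sign. In surface colonocytes against crypt progenitors the log2 differences became -1.04 for Acaa2, -0.48 for Acads, -0.41 for Acsl5, -0.96 for Bdh1, -0.24 for Decr1, -0.026 for Etfa, -0.25 for Etfb, -0.32 for Etfdh, -0.84 for Hadh, -0.0051 for Hadhb and -0.64 for Ppargc1a. Against immune classes they became -0.015 for Acat1 and -0.46 for Eci1 in colonocytes, and 0.12 for Slc25a20 in progenitors. In neutrophils against phagocytes they became -0.36 for Acadl, -0.82 for Acadvl, -0.76 for Cpt1a, -0.69 for Cpt2, -0.77 for Etfdh, -0.70 for Hadha and -0.27 for Slc25a20. In colonocytes against goblet cells they became -0.79 for Acaa2, -0.15 for Acads, -0.79 for Bdh1, -0.10 for Decr1, -0.27 for Etfb, -0.065 for Etfdh, -0.21 for Hadh and -0.52 for Ppargc1a. The counts higher and lower became 10 and 10 against progenitors, 12 and 6 against goblet cells, 0 and 21 for neutrophils and 12 and 2 for T, NK and innate lymphoid cells, and the lower count became 1 in each comparison with immune classes. The scaling itself moves every gene of a comparison together.

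With no doublets removed, 7 changed sign: Acaa2 (-0.55) against progenitors, Acat1 (-0.22) and Eci1 (-0.81) in colonocytes against immune classes, Acads (0.59) and Hadh (0.23) in neutrophils, and Acaa2 (-0.44) and Ppargc1a (-0.12) against goblet cells. Neutrophils then had 10 higher and 4 lower members, and the lower count was 1 for colonocytes against immune classes and 5 against goblet cells. Progenitors against immune classes had 1 lower member with a 10% mitochondrial limit. Neutrophils had 5 higher members in DESeq2. T, NK and innate lymphoid cells had 2 higher members with no filter and 3 with at least 500 genes per cell. The shares of all genes called under these settings are not given here, and the cause was not tested.

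The replicate number served as the block, and the numbers are not said to pair cells of different classes beyond the shared library. With no replicate block, 20 members were higher and 4 lower in colonocytes against progenitors (shares of all genes not given). With either library left out, each called member kept its sign, as a value in 1 library with no test. Depth limits Angptl4, Ehhadh, Pdk4 and Ppargc1a outside the epithelium, Angptl4 within it too, Pdk4 in goblet cells, and Fabp1 and Ppara everywhere.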

Other observations

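An epithelial subcluster led by Ccl20, Spib and Hao2, with Aqp4 among its leading genes, stayed unnamed and entered no comparison. It held 174 cells in library 1 and 32 in library 2. Scaled to summed totals, its Ppargc1a stood at 68.8 and 85.2 CPM, against 24.7 and 24.0 CPM in the Smoc2 and Lgr5 progenitor subcluster and 20.4 and 26.8 CPM in the Mal and Cyp2c65 colonocyte subcluster. Ppara, at 7.32 and 17.2 CPM, Hadh, at 318 and 406 CPM, and Cpt1a, at 159 and 230 CPM, were also higher there than in every other subcluster with at least 20 cells in each library. Acsm3, at 38.3 and 46.7 CPM, lay between the progenitor and colonocyte subclusters, as did Slc25a20, at 156 and 140 CPM. These values carry no test.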
